A study of Mus musculus with 8 samples.

Results

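The genes described here encode the DBHS proteins and their closest partners in paraspeckles, the bodies in the nucleus that form on the transcript of Neat1, a long non-coding RNA. They are Nono, Sfpq, Pspc1, Matr3, Tardbp, Ewsr1, Taf15, Cpsf6 and Nudt21, 9 of the 21924 protein-coding genes of the GENCODE M21 annotation of mm10. They were chosen by name, and a peak was taken as theirs when it overlapped the gene body by 1 bp. Of 150555 peaks in the 3 lists of RNA bound by the anti-NONO antibody, 126 lay over these genes, as did 45 peaks of the IgG list.

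Anti-NONO beads were used to precipitate RNA from liver nuclei, and the bound RNA was sequenced. All mice were C57BL/6, wild type in genotype and 14 weeks old, kept on a 12 h light and 12 h dark cycle, and fed only in the dark for a week beforehand. The states sampled were fasted (zeitgeber time 10), re-fed for 2 h (zeitgeber time 14) and re-fed for 10 h (zeitgeber time 22), so that feeding state and time of day cannot be told apart. Each of these 3 times had an immunoprecipitate and an input library, and a single IgG immunoprecipitate with its input, for which the labels gave no feeding state, brought the total to 8. Each library was a pool of 2 independent experiments, so no value below has a replicate error, no test was possible, and a time or IgG difference is a difference between single pooled libraries.

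NONO, SFPQ and PSPC1 are the mammalian DBHS (Drosophila behaviour, human splicing) proteins. They bind RNA and DNA as dimers of each other, act in transcription, splicing and nuclear retention of RNA, and are needed for or found in paraspeckles. NONO is also known in mouse liver as a factor in the response of metabolic genes to feeding. MATR3, TDP-43 (from Tardbp), EWSR1 and TAF15 are nuclear RNA-binding proteins of other families, and CPSF6 and CPSF5 (from Nudt21) form the cleavage factor that takes part in the choice of polyadenylation sites.

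Peaks over the transcripts of these genes were broad, so the coding stretch inside them is shown where the peaks met an exon that ends the reading frame. Each line gives the last coding stretch of an annotated exon from the GENCODE M21 transcripts (GRCm38), in the direction of the transcript, with the stop codon in capitals. The Nono stretch (exon 12 of 12, plus strand, chrX:101447594-101447728) lay wholly inside a NONO peak at all 3 times and under no IgG peak. The Sfpq stretch (exon 10 of 10, plus strand, chr4:127029827-127029964) lay wholly inside a NONO peak at 2 h and at 10 h, under none in fasted liver and under no IgG peak.
Nono exon 12: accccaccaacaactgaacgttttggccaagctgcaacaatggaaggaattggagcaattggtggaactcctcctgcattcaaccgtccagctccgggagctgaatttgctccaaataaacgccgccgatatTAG
Sfpq exon 10: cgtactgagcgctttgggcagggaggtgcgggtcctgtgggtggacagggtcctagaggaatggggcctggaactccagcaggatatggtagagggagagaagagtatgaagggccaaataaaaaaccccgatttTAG

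NONO peaks were listed over 8 of the 9 genes in fasted liver and over all 9 at 2 h and at 10 h, where 28.4%, 33.9% and 32.7% of all protein-coding genes had a NONO peak. The exception was Tardbp, which had none in fasted liver. All 9 also had an IgG peak, as did 34.6% of protein-coding genes, and 44.1% of protein-coding genes had a peak in at least 1 of the 4 lists. A NONO peak that no IgG peak overlapped by 1 bp, called IgG-free below, was listed over 7 genes in fasted liver, 8 at 2 h and 8 at 10 h. Over all protein-coding genes these shares were 26.4%, 31.3% and 29.9%. Among genes with a peak in any of the 4 lists they were 59.9%, 70.9% and 68.0%. At all 3 times, 6 of the 9 genes had an IgG-free peak, against 20.7% of protein-coding genes. That is 4532 of the 9660 genes with a peak in any of the 4 lists. The genes without such a peak were Sfpq and Tardbp in fasted liver, Tardbp at 2 h and Nudt21 at 10 h.

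The genes had 30 NONO peaks in fasted liver, 48 at 2 h and 48 at 10 h. Of these 13, 21 and 23 were IgG-free, or 43.3%, 43.8% and 47.9%, below the 65.3%, 60.1% and 59.8% over all protein-coding genes. Since every one of the 9 genes had an IgG peak somewhere in its body, none kept an IgG-free peak when genes with any IgG peak were set aside. The plot of peak numbers shows that Pspc1 had most peaks in every NONO list, with 8 in fasted liver, 17 at 2 h and 12 at 10 h, in the longest of the gene bodies (57.6 kb). Taf15 had 6, 6 and 7 NONO peaks, of which 1 at each time was IgG-free.

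**Figure D1:**
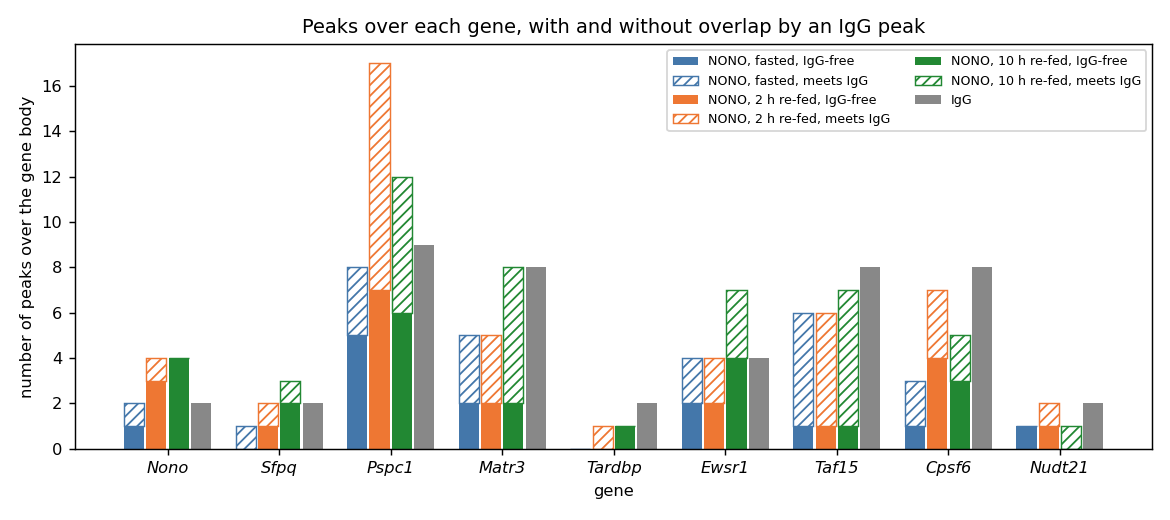
Number of peaks over each gene body in each list, with IgG-free peaks filled, NONO peaks that meet an IgG peak hatched, and the IgG list in grey. Pspc1 had 17 peaks at 2 h, of which 7 were IgG-free, and Tardbp had no peak in fasted liver.

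The peaks were of low enrichment over input. The median of the authors' fold over input was 2.29 at each of the 3 times and 2.46 in the IgG list, where a peak needed 2-fold to be listed. Over all protein-coding genes the medians were 2.80, 3.09, 2.82 and 4.16. A stricter cut was set at the square root of 10, just above 3.16-fold, so that Nono peaks at 10 h with a deposited 3.16-fold fall below it. The cut was reached by 6 of 30 peaks in fasted liver, 7 of 48 at 2 h and 7 of 48 at 10 h. These shares were 20.0%, 14.6% and 14.6%, against 37.2%, 48.1% and 37.2% of peaks over all protein-coding genes. Of the IgG peaks over the 9 genes 15.6% reached it, against 70.0% of IgG peaks over all protein-coding genes. The plot of fold against tags shows the peaks above that line mostly among those of few tags. The highest fold at any time, 10.47, belonged to a 2 h peak over Nudt21 that held 11 library tags.

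**Figure D2:**
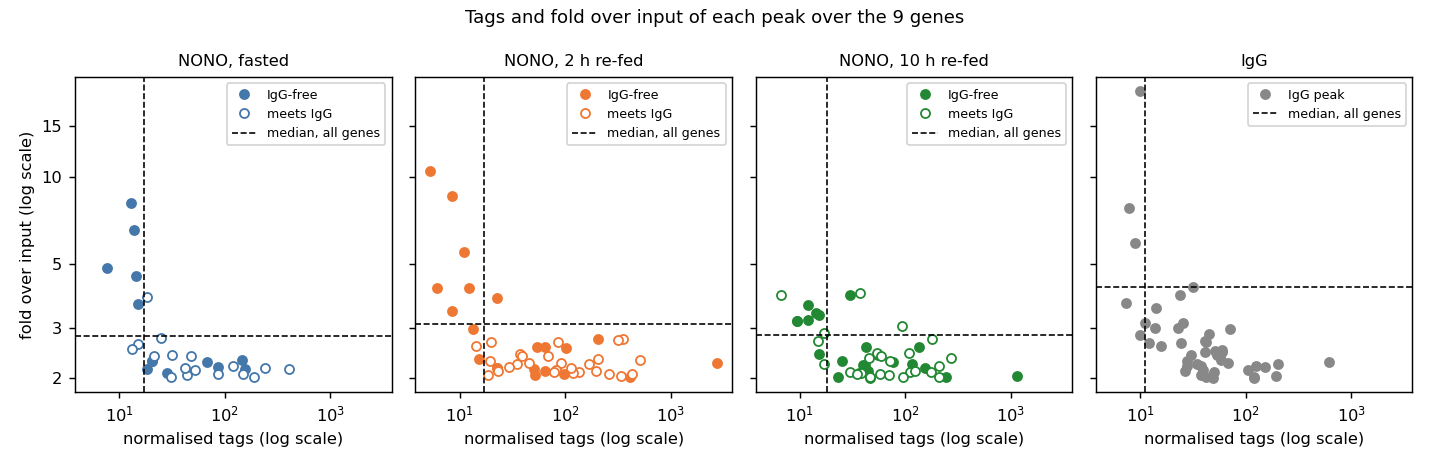
Fold over input (log scale) against normalised tags (per 10000000 library tags, log scale) of every peak over the 9 genes, with 1 panel per list and dashed lines at the medians of peaks over all protein-coding genes. The NONO peaks of most tags lie just above 2-fold, as the Sfpq peak at 2 h does with 2770.8 tags and 2.27-fold.

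More tags lay in peaks over these genes after re-feeding. Summed over the 9 genes, the deposited normalised tags, which are scaled to 10000000 tags in each library, were 2139.9 in fasted liver, 7849.8 at 2 h, 4484.7 at 10 h and 2864.2 in the IgG library. The peaks covered 26.9, 81.3 and 54.1 kb at the 3 times and 61.1 kb in IgG, which gives 79.6, 96.6, 82.8 and 46.9 tags per kb of peak. The input tags in the same peaks moved with these sums. They were taken as normalised tags divided by fold, in peaks mostly near the 2-fold needed, so this follows largely from the calling rule. The input tags were 965.6 in fasted liver, 3447.4 at 2 h, 2027.1 at 10 h and 1240.0 for IgG. The ratio of immunoprecipitate to input over all peaks of the 9 genes was thus 2.22, 2.28, 2.21 and 2.31. This order of times rested on peaks of low fold. With peaks of at least the square root of 10 in fold, the sums were 81.8 in fasted liver, 74.4 at 2 h, 126.3 at 10 h and 103.7 in IgG. With peaks that touch no other gene they were 1750.1, 3855.2 and 3643.7, and 2448.9 in IgG. At 2 h 1 Sfpq peak that also touches another gene held 2770.8 of the 7849.8 tags. The order of times was also that of the whole libraries, whose peaks anywhere took 11.6% of tags in fasted liver, 26.1% at 2 h and 17.3% at 10 h. In such bulk nuclei, a change in the number of cells of a type and in RNA per cell cannot be told apart.

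At 2 h the summed tags were higher than in fasted liver for 8 of the 9 genes, with Ewsr1 the exception, and 75.9% of all protein-coding genes with a peak at either time were higher. Of the 8 genes with peaks at both times, 5 were at least 2-fold higher at 2 h (Sfpq, Pspc1, Matr3, Cpsf6 and Nudt21) and 0 at least 2-fold lower. Over all protein-coding genes with peaks at both times, 45.3% were higher and 7.70% lower by this rule. The median ratio of 2 h over fasted liver was 2.84 for these genes and 1.82 for all.

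At 10 h, 8 of the 9 genes were higher than in fasted liver by any amount, against 69.4% of all genes. Of 8 with peaks at both times, 4 genes were at least 2-fold above fasted liver (Sfpq, Pspc1, Cpsf6 and Nudt21) and 0 below, against 32.1% and 9.08% of all genes, with a median ratio of 1.89 for these genes and 1.44 for all. The sum at 10 h was above that at 2 h for 2 of the 9 genes (Nono and Ewsr1, by 1.01-fold and 1.02-fold), against 38.7% of all genes, and it was at least 2-fold lower than 2 h for 4 of the 9 genes (Pspc1, Matr3, Tardbp and Cpsf6) and at least 2-fold higher for 0, where 23.9% of all genes were lower and 12.8% higher. The median ratio of 10 h over 2 h was 0.513 for these genes and 0.790 for all. The 3 pairs of times share libraries, so they are not separate evidence.

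**Figure D3:**
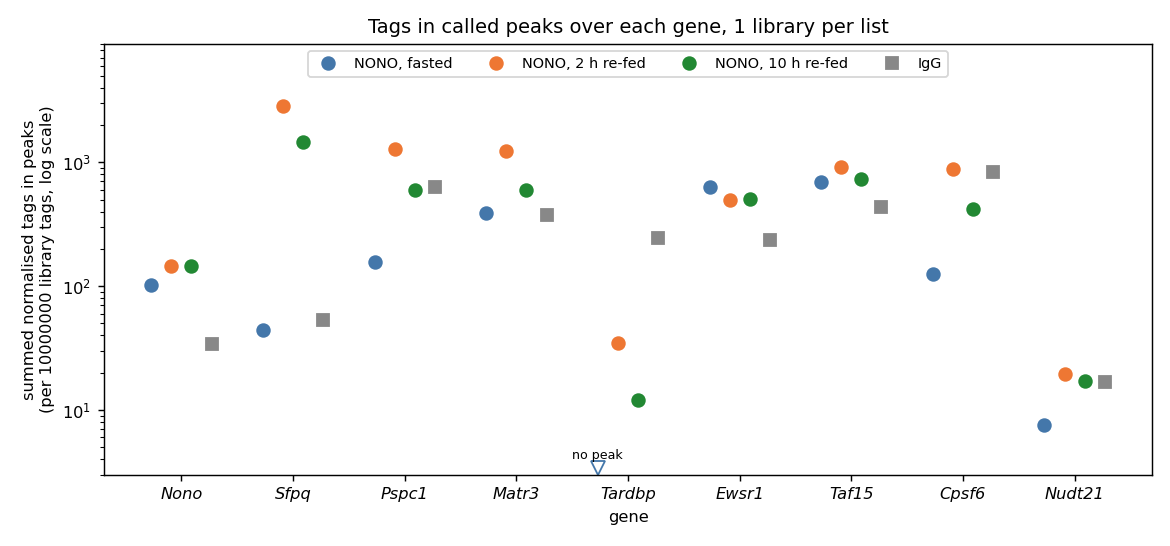
Normalised tags summed over the peaks of each gene (per 10000000 library tags, log scale), with circles for the 3 NONO libraries and squares for IgG, 1 library each. Sfpq had 44.2 tags in fasted liver, 2861.4 at 2 h and 1467.6 at 10 h, and the open triangle marks Tardbp in fasted liver, which had no peak.

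Compared with IgG, the sum was higher in NONO for 4 of the 9 genes in fasted liver, 8 at 2 h and 6 at 10 h. Over all protein-coding genes with a peak in either list, this held for 44.5%, 66.8% and 60.9%. The 4 genes in fasted liver were Nono, Matr3, Ewsr1 and Taf15, and these 4 were above IgG at every time. Another 4 of the 9 genes were above IgG at some times and not at others, as were 51.0% of the protein-coding genes with a peak in any list, and 22.1% of those genes were above it at no time. A single peak over the small nuclear RNA gene Rn7sk took 37.5% of the IgG library, which lowers every other normalised IgG value. With IgG rescaled 1.60-fold to leave it out, the numbers were 2, 6 and 4 of the 9 genes. The share over all genes at each time was not taken with this scaling, so these numbers have no background beside them. Then 4 genes changed side with time (Sfpq, Pspc1, Matr3 and Taf15) and 3 were above IgG at no time (Tardbp, Cpsf6 and Nudt21), against 50.8% and 32.6% of genes with a peak in any list.

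Nono, the gene of the precipitated protein itself, lies on chromosome X (101429318 to 101448591, plus strand). It had 2 NONO peaks in fasted liver, 4 at 2 h and 4 at 10 h, and 2 IgG peaks. The peak with the most tags at each time lay over the last exon, number 12, which holds the coding stretch printed above. It ran from 101447395 to 101448982 in fasted liver, from 101447157 to 101448294 at 2 h and from 101447538 to 101448711 at 10 h. No IgG peak met it.

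This 3′ end peak of Nono held 86.5 normalised tags in fasted liver (95% exact Poisson interval 74.4 to 100), 101.5 at 2 h (88.3 to 116) and 114.9 at 10 h (99.9 to 132). The intervals of neighbouring times overlap, and such intervals cover counting error only. The peaks differed in width, with 54.5, 89.3 and 98.0 tags per kb, and their fold over input was 2.19, 2.55 and 2.24. They covered 100%, 70.2% and 100% of the exon. All of these folds lie close to the 2-fold needed for a peak.

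The other Nono peaks were small. They held between 8.53 and 23.2 normalised tags, and the intronic ones at 2 h (8.53 and 10.9 tags, 8.57-fold and 5.47-fold) and at 10 h (9.30, 9.30 and 12.0 tags, 3.16-fold, 3.16-fold and 3.58-fold) were IgG-free. One site in the intronic part, 101437486 to 101438606, had a peak both at 2 h and at 10 h. The second fasted peak (101442703 to 101443328, 15.2 tags) met an IgG peak by a single base and would count as IgG-free under a rule that asks for 50% cover. Summed over its peaks, Nono had 101.7 tags in fasted liver, 144.1 at 2 h and 145.5 at 10 h, against 34.2 in IgG. All 3 NONO sums lay above the IgG sum, and also above it after the 1.60-fold rescaling.

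Sfpq, whose protein is the most common partner of NONO in dimers, lies on chromosome 4 (127021324 to 127037013, plus strand). Summed over peaks that were called separately at each time, it had 44.2 normalised tags in fasted liver, 2861.4 at 2 h and 1467.6 at 10 h, against 53.7 in IgG. These sums move with how much was called, since the peaks covered 627 bp in fasted liver, 8895 bp at 2 h and 5761 bp at 10 h. Without peaks that touch another gene, the 2 h sum was 90.6 tags, against 44.2 in fasted liver. At 10 h the peaks left by this rule held 93.0 and 1132.7 tags. The IgG peak left by it held 15.8 tags, below the NONO tags at each time, since the other IgG peak (37.9 tags) also touches Gm12940. Over all peaks, the ratio to IgG was 0.823 in fasted liver, 53.3 at 2 h and 27.3 at 10 h. Each list was summed over its own peaks, so the NONO and IgG sums come largely from different stretches after re-feeding.

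Most of these tags lay at the 3′ end of Sfpq. At 2 h 1 IgG-free peak from 127027846 to 127034783 held 2770.8 tags (interval 2700 to 2843), and it ran from the last intron over exon 10 and beyond. At 10 h 2 IgG-free peaks lay in the same stretch, 127027976 to 127030793 with 1132.7 tags (1084 to 1183) and 127033851 to 127034729 with 241.9 tags. The density of the larger pair was alike, 399 tags per kb at 2 h and 402 at 10 h, so the lower 10 h sum goes with a shorter peak. In fasted liver no peak was listed there, which says only that no window reached the tag and fold thresholds.

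The fold of these Sfpq peaks was 2.27 at 2 h and 2.04 and 2.02 at 10 h, near the 2-fold threshold. Their input held 1221 tags at 2 h, and 555 and 120 at 10 h. The 2 h peak and the smaller 10 h peak also reach over Gm12940, an annotated gene on the same strand that starts inside the Sfpq gene body (127033731). Reads of the overlapping genes cannot be told apart in these lists. Without peaks that touch another gene, Sfpq kept no IgG-free peak at 2 h and 1 at 10 h.

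A second Sfpq site lay mainly in intron 4. It had a peak at all 3 times, with 44.2 tags in fasted liver, 90.6 at 2 h and 93.0 at 10 h, in peaks of 70.5, 46.3 and 45.0 tags per kb. An IgG peak of 15.8 tags met it each time. The sums are thus higher after re-feeding in wider peaks of lower density.

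**Figure D4:**
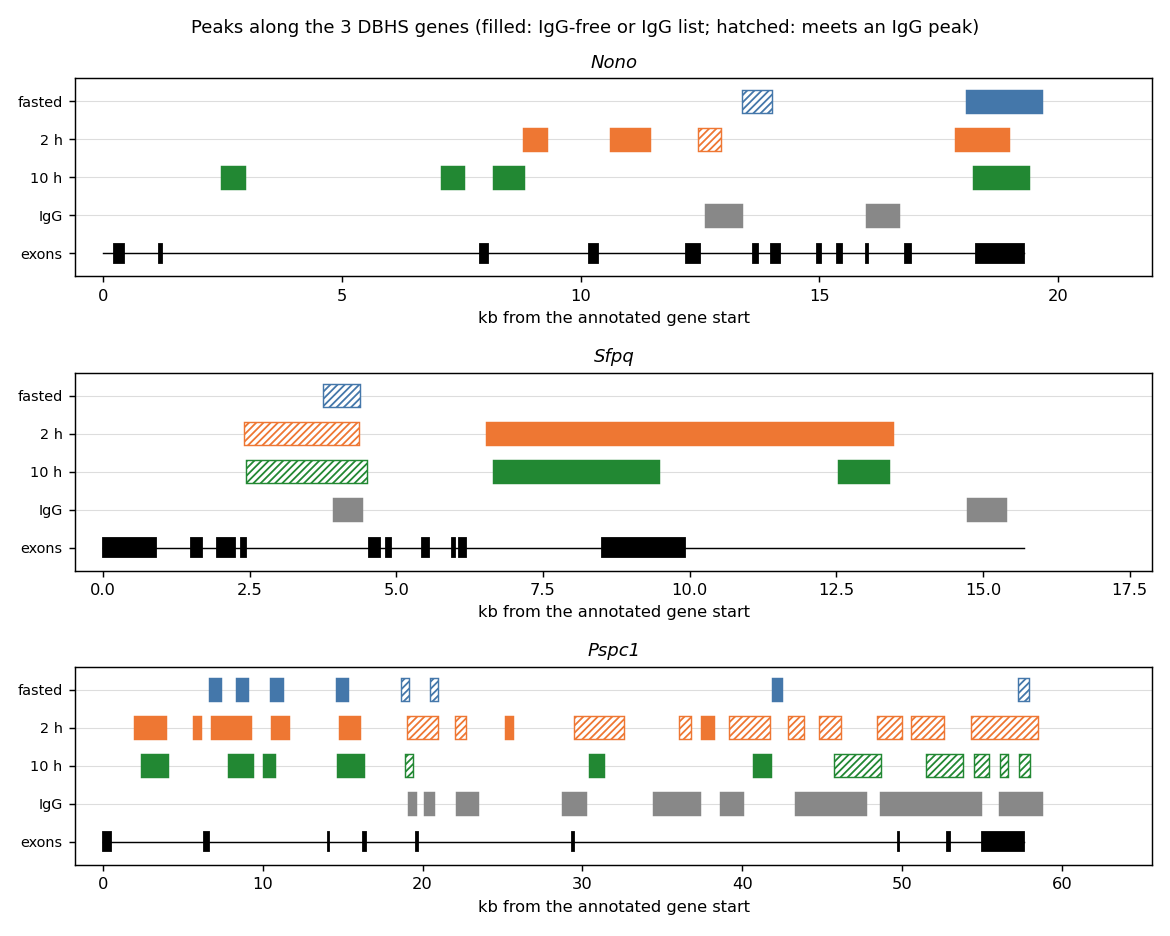
Peaks along Nono, Sfpq and Pspc1 drawn to scale in kb from the annotated gene start, with 1 row per list and the exons of the main coding transcript below. The last exons of Nono (all 3 times) and Sfpq (2 h and 10 h) carry filled, IgG-free peaks. Most filled NONO peaks of Pspc1 lie in its first 19.1 kb, the part before its first IgG peak.

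Pspc1, the third DBHS gene, lies on chromosome 14 (56720710 to 56778316, minus strand). Its sums were 155.5 tags in fasted liver, 1277.3 at 2 h and 593.7 at 10 h, against 625.9 in IgG. The 2 h library stood above IgG by 2.04-fold, while 10 h (0.949-fold) and fasted liver (0.248-fold) lay at or below it. The ratio of 2 h over fasted liver was 8.21 and that of 10 h over fasted liver 3.82. Peaks covered 9.55%, 49.0% and 27.1% of the gene at the 3 times and 38.0% in IgG, and the density in them was 28.3, 45.3 and 38.1 tags per kb of peak, against 28.6 in IgG. Covered length and density were thus both highest at 2 h.

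The first IgG peak of Pspc1 starts 19.1 kb from its 5′ end, a boundary taken from the data after they were seen. Every NONO peak wholly before it is IgG-free by construction, so the counts below do not test where IgG-free peaks lie. Peaks that cross the boundary were counted with the rest of the gene. Before the boundary lay 4 of the 5 IgG-free peaks in fasted liver, 5 of 7 at 2 h and 4 of 6 at 10 h. Tags in peaks of that 5′ part were 77.0 in fasted liver, 159 at 2 h and 128 at 10 h. Those in the rest of the gene were 78.5, 1118 and 466. The time differences were larger in the 3′ part, where IgG peaks also lay.

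Pspc1 had 5 sites with a peak at all 3 times, and 3 of these never met an IgG peak. The first, 56768940 to 56771708, held 48.9 tags in fasted liver, 64.0 at 2 h and 42.1 at 10 h. The second, 56766677 to 56768313, held 13.8, 12.3 and 15.3 tags. The third, 56762001 to 56763757, held 14.3, 22.8 and 29.5 tags at 4.52-fold, 3.81-fold and 3.90-fold, among the higher folds of the set. At the first and the second of these sites all pairs of times lay within 2-fold, unlike the sum over the gene, and at the third 10 h was a little over 2-fold above fasted liver.

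The last exon of Pspc1 carried peaks at all 3 times, with 31.9 tags in fasted liver, 205 at 2 h and 84.9 at 10 h, and all of them met IgG peaks. The IgG peak on the exon held 60.0 tags. A second IgG peak, of 201.1 tags from 56723397 to 56729714, also met the 2 h peak. It was the only one to meet the 10 h peak of 37.8 tags. The last-exon peak had the most tags in fasted liver (31.9) and at 2 h (205.3), and an intronic peak did at 10 h (174.0 tags, 56729616 to 56732563). The remaining site of all 3 times, 56757345 to 56759669, also met IgG, with 31.4, 45.0 and 6.57 tags.

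Matr3 encodes matrin 3, a nuclear matrix protein that binds RNA and represses exons in splicing. It lies on chromosome 18 (35562138 to 35593835, plus strand). Its sums were 389.8 tags in fasted liver, 1223.8 at 2 h and 599.1 at 10 h, against 377.4 in IgG, and the ratio of 2 h over fasted liver was 3.14. Like Nono, it had an IgG-free peak on its last exon at all 3 times. That peak held 146.9 tags in fasted liver (131 to 164), 204.4 at 2 h (186 to 225) and 134.6 at 10 h (118 to 153), at 2.31-fold, 2.75-fold and 2.58-fold over input. At 2 h it was 4496 bp wide and ran 1991 bp past the annotated end of the gene, and its density was lower there, 45.5 tags per kb at 2 h against 102 in fasted liver.

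The last-exon peak was the largest Matr3 peak in fasted liver. At 2 h (509.7 tags) and 10 h (206.3 tags) the largest belonged to a second site of all 3 times, 10.8 to 14.9 kb from the gene start, which met IgG. In fasted liver this site held 187 tags in 2 peaks, of which 1 (67.0 tags) was IgG-free. Every peak over Matr3 also touches another annotated gene, Gm28285 and Gm36989 on the same strand and AC121821.3 on the opposite strand. AC121821.3 lies over the last exon. Peaks were called on both strands together, so its reads and those of Matr3 cannot be told apart.

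Nono and Matr3 were the 2 of the 9 genes with an IgG-free last-exon peak at all 3 times, which 0.470% of all protein-coding genes had, and 2.27% of the genes with IgG-free peaks at all 3 times. For Nono this rests on a low-scoring peak at 2 h. With the 3 lists of equal length, Nono had 0 IgG-free peaks at 2 h, so that Matr3 was the 1 gene of the 9 left, against 0.342% of protein-coding genes. By time, 2 of the 9 genes had such a peak in fasted liver and 3 at 2 h and at 10 h, when Sfpq joined them, against 2.97%, 4.03% and 4.24% of protein-coding genes. This feature was noticed in these lists and then counted, so the shares are a description.

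Tardbp, the gene of TDP-43, a protein that binds UG-rich RNA and controls its own transcript through its 3′ end, had few tags in NONO peaks. It lies on chromosome 4 (148612382 to 148627019, minus strand). It had no peak in fasted liver, 1 intronic peak of 34.6 tags at 2 h that met IgG, and 1 IgG-free intronic peak of 12.0 tags at 10 h. In IgG it had 245.8 tags in 2 peaks. The larger of these, 192.1 tags from 148615587 to 148616661, lay in the last exon, where no NONO list had a peak. With IgG as deposited, Tardbp was the 1 gene of the 9 whose IgG sum lay above its sum in all 3 NONO lists, and with IgG rescaled this held for Cpsf6 and Nudt21 too.

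Ewsr1 and Taf15 encode 2 of the FET proteins, which bind RNA and take part in transcription and splicing. With Nono, these were the genes whose sums lay within 2-fold between every pair of times. Ewsr1 (chromosome 11, 5069689 to 5099266, minus strand) had 628.0 tags in fasted liver, 492.2 at 2 h and 501.2 at 10 h, against 233.7 in IgG. Taf15 (chromosome 11, 83473086 to 83506743, plus strand) had 687.5, 907.9 and 730.6 tags, against 436.4 in IgG. For both genes all NONO sums were above IgG, although Taf15 in fasted liver was not once IgG was rescaled.

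The largest Ewsr1 peak at each time lay at one site, 7.37 to 10.8 kb from the gene start. It held 404.6 tags in fasted liver, 352.8 at 2 h and 180.0 at 10 h, where a neighbouring peak of 35.0 tags belongs to the same site. An IgG peak of 58.4 tags, from 5090183 to 5091567, met it each time. A larger IgG peak of 105.3 tags, from 5086244 to 5089007, met the 2 h peak and the neighbouring 10 h peak. The density of the largest NONO peaks was 162, 115 and 121 tags per kb, against 42.2 and 38.1 in these IgG peaks.

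The IgG-free peaks of Ewsr1 were intronic and held 8.53 to 76.6 tags. One of them, near 15 kb from the gene start, was listed at 2 h (52.2 tags) and at 10 h (76.6 tags). The fold of 8.13 in fasted liver, from a peak of 27 library tags, was the highest of that list. In Taf15 all 3 sites with a peak at each time met IgG. The largest Taf15 peaks held 241.1 tags in fasted liver (83499400 to 83501126), 428.6 at 2 h (83480719 to 83488714) and 267.6 at 10 h (83498358 to 83501908). An IgG-free intronic peak of 155.5 tags in fasted liver overlapped a wider 2 h peak that met IgG elsewhere.

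**Figure D5:**
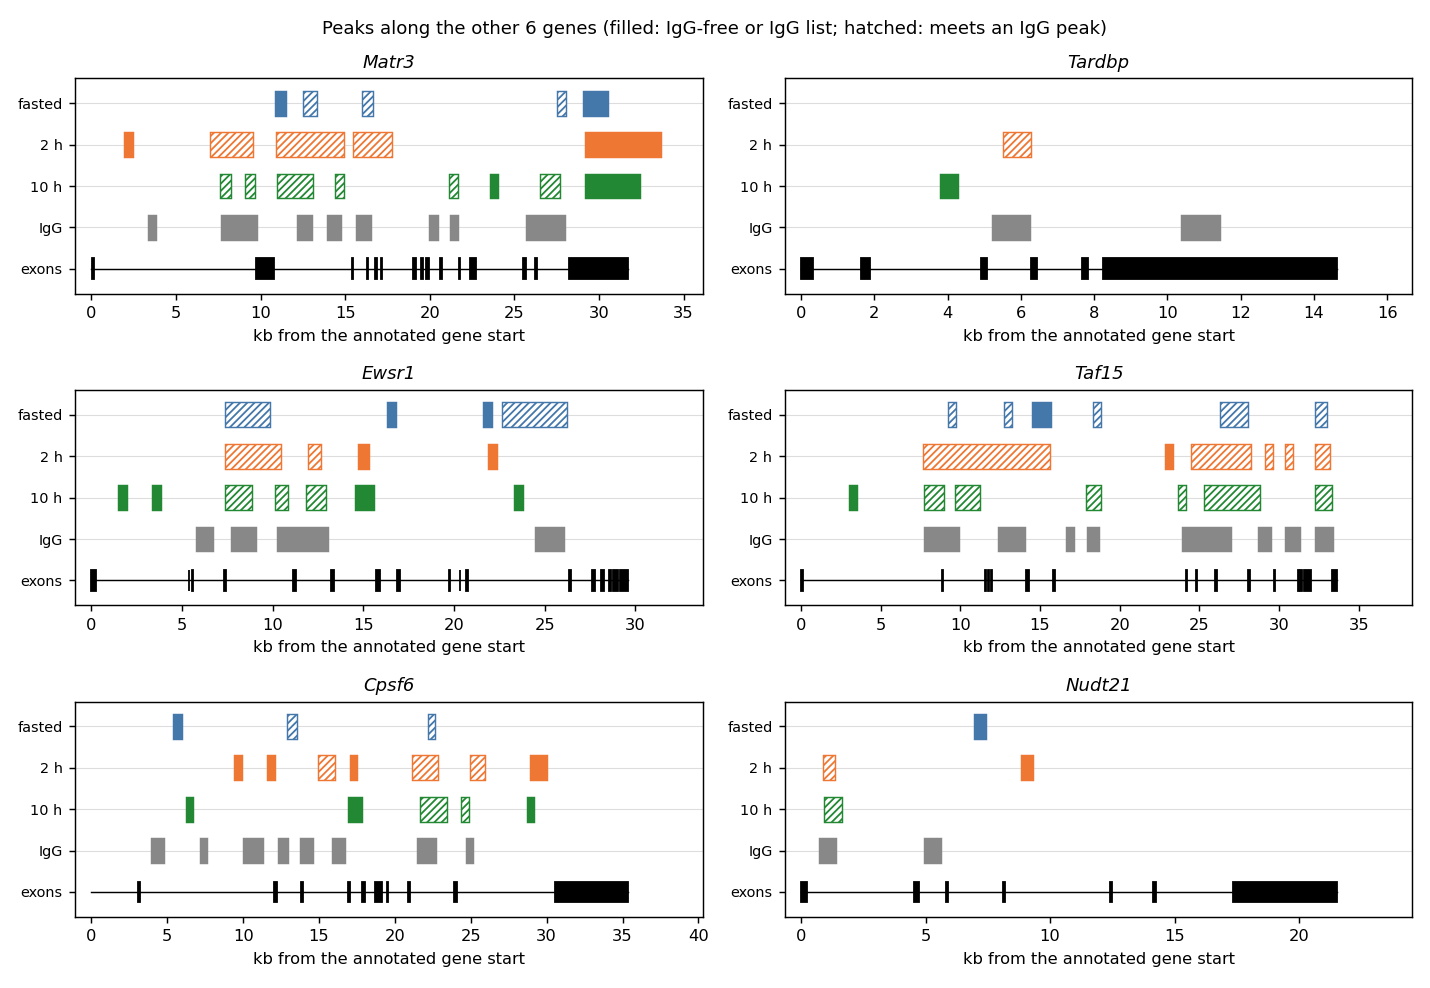
Peaks along Matr3, Tardbp, Ewsr1, Taf15, Cpsf6 and Nudt21 drawn to scale in kb from the annotated gene start, with 1 row per list and the exons of the main coding transcript below. The last exon of Matr3 carries filled, IgG-free peaks at all 3 times, and that of Tardbp carries an IgG peak only.

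Cpsf6, the larger subunit of the cleavage factor, lies on chromosome 10 (117344673 to 117380015, minus strand). Its sums were 125.6 tags in fasted liver, 889.1 at 2 h and 418.0 at 10 h, against 840.3 in IgG. The ratio of 2 h over fasted liver was 7.08 and of 10 h over fasted liver 3.33. The ratio to IgG was 0.149 in fasted liver, 1.06 at 2 h and 0.497 at 10 h. With IgG rescaled it was 0.0934, 0.661 and 0.311, so that no NONO library then reached IgG.

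The largest peaks of Cpsf6 lay at different places in NONO and in IgG. The largest NONO peak at 2 h (117350012 to 117351087, 415.3 tags) and at 10 h (117350827 to 117351327, 153.2 tags) was IgG-free, in the last intron, and had 386 and 306 tags per kb. In fasted liver no peak was listed there, and the largest was an intronic peak of 86.1 tags that met IgG and belonged to a site of all 3 times. The IgG list had its own peak of 619.6 tags from 117365388 to 117366264, which no NONO peak met. NONO peaks that met IgG still held 108 of the Cpsf6 tags in fasted liver, 413 at 2 h and 196 at 10 h. Over the 9 genes, 12 of 45 IgG peaks (26.7%) were met by no NONO peak, against 38.0% of IgG peaks over all protein-coding genes.

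Nudt21, the smaller subunit, lies on chromosome 8 (94015496 to 94037031, minus strand) and had few tags in every list. Its sums were 7.61 in fasted liver, 19.4 at 2 h and 17.0 at 10 h, against 16.9 in IgG. The single fasted peak rested on 16 library tags and the IgG-free 2 h peak on 11, the lowest number a NONO peak could have. With so few tags the ratio of 2.55 for 2 h over fasted liver rests on different peaks, since no site was shared by fasted liver and a later time.

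More of the peaks over these genes touched an exon than of peaks over protein-coding genes in general, in genes with more exon and in wider peaks. Exons of coding transcripts were touched by 8 of 30 peaks in fasted liver (26.7%, exact binomial interval 12.3 to 45.9), 15 of 48 at 2 h and 15 of 48 at 10 h (31.2% each, 18.7 to 46.3). Over all protein-coding genes the shares were 9.04%, 11.1% and 7.99%. The IgG peaks over the 9 genes touched exons in 16 of 45 cases (35.6%), against 11.4% over all. Coding-transcript exons make up 17.9% of the length of the 9 gene bodies and 6.66% of the length of all genes with a peak, at median lengths of 29.6 and 30.3 kb. Median peak widths were 634, 1049 and 896 bp at the 3 times and 900 bp in IgG, against 626, 739, 645 and 650 bp over all protein-coding genes, and a wider peak touches an exon more easily. By the midpoint of the peak the shares in an exon were lower, 16.7% in fasted liver, 8.33% at 2 h and 10.4% at 10 h, against 2.61%, 2.45% and 2.78% over all. Among peaks of at least the square root of 10 in fold, the shares touching an exon were 0%, 0% and 28.6%.

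Merged over the 3 NONO lists, the 9 genes had 67 sites, of which 14 had a peak at all 3 times, 18 at 2 and 35 at 1. The shares at all 3 times and at 1 were 20.9% and 52.2%, against 11.8% and 64.7% of such sites over all protein-coding genes. A site is more easily listed in a longer list, and the lists held 38209, 61737 and 50609 peaks. Peaks over the 9 genes also held more tags, with medians of 31.4, 59.0 and 45.7 against 17.1, 17.1 and 18.1 over all protein-coding genes. They were wider at 2 h and 10 h (medians 1049 and 896 bp, against 739 and 645 bp), and wider peaks merge more easily. The part of tags and width in these shares was not tested. Of the 14 sites at all 3 times, 5 never met an IgG peak, 7.46% of the 67, against 4.10% of the sites over all protein-coding genes. These 5 were the Nono and Matr3 last-exon sites and the 3 sites in the 5′ part of Pspc1. With lists of equal length the Nono site had no peak at 2 h and was not among them.

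The pattern over the 4 lists was compared with that of 4768 protein-coding genes with a peak in each list, by distance of log2(tags + 1). Nearest to Nono were Sympk (97.5, 143.2 and 149.6 tags at the 3 times and 42.1 in IgG, distance 0.302) and Supt16 (distance 0.369). Nearest to Pspc1 were the complement genes C9 (distance 0.285) and C3 (0.302). No gene lay as near to Sfpq. The closest, Ddah1, had 59.8, 1137.2 and 795.1 tags and 137.9 in IgG at a distance of 2.13, and Sf1 followed at 2.92.

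Other genes of paraspeckle proteins were read from a list of 32. IgG-free NONO peaks were listed over 21 of them in fasted liver, 19 at 2 h and 25 at 10 h, and over 16 at all 3 times. Over all protein-coding genes the shares were 26.4%, 31.3%, 29.9% and 20.7%. Among genes with a peak in any of the 4 lists they were 59.9%, 70.9% and 68.0% at the single times. Only 2 of the 32 genes had no peak in any list. Any NONO peak was listed over 26, 23 and 26, and an IgG peak over 26, against 28.4%, 33.9%, 32.7% and 34.6% of protein-coding genes. Most IgG-free peaks were over Tox (35, 23 and 7), a gene of an HMG-box protein, followed by the chromatin remodeller gene Smarca4 (6, 11 and 8), Fign (8, 6 and 9) and Ubap2l (6, 5 and 6). The scaffold RNA Neat1 itself had 30057.4 tags in fasted liver, 20421.0 at 2 h and 8227.1 at 10 h, and 24836.0 in IgG. Its order over the times was thus not that of Sfpq, Pspc1, Matr3 or Cpsf6. IgG as deposited was above 2 of its 3 NONO values, and with the 1.60-fold rescaling it would be above all 3.

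The libraries held 21032764 tags (fasted), 21091048 (2 h), 18275033 (10 h) and 18995778 (IgG), and their peaks took 11.6%, 26.1%, 17.3% and 53.2% of them. Peaks were listed over 4, 4 and 6 of 7 hepatocyte marker genes at the 3 times and 6 in IgG, with Apoa1 at 0 in every list. They were listed over 2, 3 and 3 of 5 Kupffer cell markers, 2 of 4 endothelial markers in every list, 2 of 4 stellate cell markers at each time and 4 in IgG, and 0 of 4 cholangiocyte markers. The hepatocyte markers went different ways over the times. Cps1 had 3763.2, 6906.1 and 11168.9 tags (7900.0 in IgG), and Apob 175.0, 1983.4 and 687.8 (1908.7 in IgG). Tdo2 had 1991.6, 908.8 and 235.8 tags (653.3 in IgG), and Hnf4a 540.1, 201.9 and 234.2 (1112.8 in IgG). Alb and Cyp2e1 had NONO peaks at 10 h only. The part of cell composition in the time differences was not tested.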

How the data were processed

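Nuclear RNA bound by anti-NONO or IgG beads, and input RNA, was sequenced, with ribosomal RNA depleted and a kit that keeps strand, per the labels. Per the submitters' processing notes, STAR 2.4.0k, HOMER and FastQC 0.11.2 were used with mm10. HOMER was run by the authors in 500 bp windows joined within 1000 bp, per the file headers, each immunoprecipitate against its own input, with 2-fold enrichment and 11 tags required (8 for IgG). The deposited signal is tags per 10000000 library tags, the deposited fold is the authors' ratio to input scaled to equal depth, and the deposited score is HOMER's peak score. The authors' p-values were not used here.

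Peaks were laid on GENCODE M21, and all were called on both strands together, so strand could not separate overlapping genes. A peak belonged to a gene from 1 bp of overlap and met IgG from 1 bp of overlap. Last exons are those of the principal coding transcript. Library tags were the normalised tags rescaled by library size, and input tags the normalised tags divided by fold. Differences between times were called at 2-fold. With 1 library per group, no test was run. Depth was 18275033 to 21091048 tags, and 95% intervals cover counting error only. The overlap code was tested on simulated data.

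All 9 genes are named. Also named are the 4 paraspeckle genes with most IgG-free peaks, Neat1, the 2 genes nearest in pattern to each DBHS gene, and the largest and shared peaks of each member. The exon-length values and the split of Pspc1 were added after the data were seen. The members and lists were chosen with earlier results of these data known. Alternatives changed the fold, list length, IgG rule, peak assignment, exon rule and IgG scaling. Calculations ran in Python 3.11.15 with scipy 1.17.1, pandas 2.3.3 and numpy 2.4.6. Results on some items are not reported here.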

Additional observations from a re-analysis of the deposited data

Results flagged for a closer look

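For 4 genes the side of the IgG level on which the NONO sum lay changed with time, as single pooled libraries, and the difference between times was not tested. Sfpq had a ratio of summed NONO over IgG tags of 0.823 in fasted liver, 53.3 at 2 h and 27.3 at 10 h. These sums include NONO and IgG peaks that also touch Gm12940, and 37.9 of the 53.7 IgG tags lay in such a peak. Without peaks that touch another gene, IgG as deposited kept 15.8 tags, against 44.2 in fasted liver and 90.6 at 2 h. By that rule Sfpq lay above IgG as deposited at every time and did not change side. Pspc1 had 0.248, 2.04 and 0.949. Cpsf6 had 0.149, 1.06 and 0.497. Nudt21 had 0.452, 1.15 and 1.01, on few tags. All 4 ratios were lowest in fasted liver and highest at 2 h, and the 3 ratios of a gene share 1 IgG library. Such a change of side was found for 51.0% of all protein-coding genes with a peak in any list. With IgG rescaled to leave out its largest peak, Sfpq and Pspc1 still changed side, while Cpsf6 (0.0934, 0.661 and 0.311) and Nudt21 (0.282, 0.721 and 0.631) lay below IgG at every time. Matr3 (0.646, 2.03 and 0.992) and Taf15 (0.985, 1.30 and 1.05) then changed side, as did 50.8% of genes.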

How the results depend on the processing

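No paired analysis was possible because there was a single library in every group, and for the same reason no replicate could be left out. With peaks of at least the square root of 10 in fold over input, the summed tags were 81.8 in fasted liver, 74.4 at 2 h, 126.3 at 10 h and 103.7 in IgG. In the same order of times, genes with an IgG-free peak numbered 3, 4 and 5, IgG-free peaks 5, 7 and 6, all NONO peaks 6, 7 and 7, and other paraspeckle genes with an IgG-free peak 8, 10 and 14. The share of peaks touching an exon was then 0% in fasted liver, 0% at 2 h and 28.6% at 10 h. The order 2 h, 10 h, fasted liver in summed tags thus did not hold at this fold. Setting aside genes with any IgG peak left 0, 0 and 0 genes and 0, 0 and 0 peaks, and 4, 2 and 3 other paraspeckle genes. The share of all protein-coding genes with an IgG-free peak was not taken under either rule. These gene counts thus have no background beside them. Keeping only peaks over no other gene gave sums of 1750.1, 3855.2 and 3643.7, and 2448.9 in IgG. Lists of equal length gave 7696.7 tags at 2 h and left Nono 0 IgG-free peaks at that time. By peak midpoint, 8.33% of peaks at 2 h and 10.4% at 10 h lay in an exon. IgG without its largest peak had 4581.6 tags. The causes were not tested. Of 189 comparisons of single genes with an alternative, 132 gave the same number of IgG-free peaks within 1.5 times and 57 moved. Peak presence is bounded by the 11 tags and 2-fold required, so a missing peak does not show missing binding.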

Other observations

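The values of a few other paraspeckle genes, chosen after they were seen, follow. At 2 h 75.9% of all protein-coding genes with a peak at either time had a higher sum than in fasted liver. Hnrnph1 had 239.2 summed tags in fasted liver, 648.6 at 2 h, 244.6 at 10 h and 181.1 in IgG. Hnrnph3 had 171.6, 571.8 and 245.7 tags, and 70.0 in IgG. Tox was highest in fasted liver, with 1666.5, 1265.1 and 291.6 tags and 580.5 in IgG. Hnrnpk was far below IgG, with 51.3, 192.0 and 31.7 tags against 509.1.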
